A study of Mus musculus with 12 samples.

Results

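The 9 genes described here mark monocytes, which leave the blood and enter tissue, or macrophages that can form from them: Ly6c2, Ccr2, Ms4a4c, Cx3cr1, Plac8, Trem2, Gpnmb, Spp1 and Cd163. They were chosen by name, by matching the gene symbols of the deposited expression table, and each matched 1 of its 49585 genes. Earlier results of these data were known when they were chosen. Their counts beside the share of all genes are therefore a description and not an independent test. The study asked what Rgs4, a regulator of G protein signalling, does in a mouse model of asthma. Poly-A RNA from whole lung was sequenced in 4 groups of 3 libraries: wild-type mice given phosphate-buffered saline (WT_PBS, libraries 15, 16 and 17), wild-type mice given the mould Aspergillus fumigatus (WT_Af, 18, 19 and 20), Rgs4 knockout mice given saline (KO_PBS, 9, 10 and 11) and Rgs4 knockout mice given the mould (KO_Af, 12, 13 and 14). All 12 carry the strain name Balb/cJ. The sources used here do not give age, sex, how the knockout was made, when lungs were taken, or how and in what amount the mould was given.

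Classical monocytes carry Ly6C on their surface and follow ligands of the receptor Ccr2 out of bone marrow and blood, while non-classical monocytes patrol vessel walls, carry little Ly6C and have high Cx3cr1. In inflamed tissue, monocytes can become macrophages that take up lipid and debris, a state known for Trem2, Gpnmb and Spp1. Cd163 is a receptor of tissue macrophages that removes haemoglobin bound to haptoglobin. Several of these genes are also expressed by other cells: T cells and NK cells can carry Ccr2 or Cx3cr1, and epithelium can make Spp1. In whole lung, fewer cells of a type and less RNA per cell cannot be told apart.

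The libraries held 20708884 to 30229446 reads. Levels are CPM as deposited, the reads of a gene scaled to a common library size. Rgs4 itself was at 20.7 to 48.8 CPM in the WT libraries and at 0.571 to 1.47 CPM in the KO libraries, so the labels held for the targeted gene. The summed level of 6 lung markers such as Sftpc and Ager was 18022 to 36929 CPM in every library. WT_PBS 17 stood apart from the other saline libraries: Krt13, a keratin of squamous epithelium, was at 240 CPM there and in KO_Af 12 at 137 CPM, against at most 0.506 CPM in the other 10, and Chil4, a gene of the allergic lung, was at 310 CPM in WT_PBS 17 against at most 0.786 CPM in the other 5 saline libraries. WT_Af 18 stood apart in its T cell markers, which summed to 433 CPM against at most 118 CPM in every other library, and WT_PBS 15 had the lowest B cell marker sum, 43.9 CPM against 156 and 157 CPM in the other WT_PBS libraries. Numbers 9 to 14 are KO libraries and 15 to 20 WT libraries, with saline before mould in each, so any effect of library order and the group cannot be told apart. Nothing in the labels says that the libraries of a group came from separate animals, so p-values measure only the spread between these libraries.

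A pair of the genes have close copies in the genome, and their sequences are shown because they bear on how far the reads can be told apart. Ly6c2 (chr15:75108158-75111970, minus strand, GRCm38) shares 14.45% of its 50-base words with other genes, chiefly Ly6c1, and 5.809% of its 100-base words. Their coding sequences are both 396 bases long and 97.73% identical, with 9 differing bases and an identical run of 188 bases. The first 120 coding bases are printed below from the GENCODE M21 transcripts, with the 6 differing bases in capitals.
Ly6c2: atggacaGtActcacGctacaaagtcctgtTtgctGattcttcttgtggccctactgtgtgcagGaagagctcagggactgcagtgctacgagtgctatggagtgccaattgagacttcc
Ly6c1: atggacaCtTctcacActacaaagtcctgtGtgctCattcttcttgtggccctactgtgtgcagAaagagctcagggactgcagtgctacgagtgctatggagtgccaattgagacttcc

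Ms4a4c (chr19:11404770-11427246, plus strand) shares 8.185% of its 50-base words, chiefly with Ms4a4b, and 1.66% of its 100-base words. Both coding sequences hold 681 bases and are 91.78% identical, with 56 differing bases. In the first 120 coding bases the 9 differing bases are again in capitals.
Ms4a4c: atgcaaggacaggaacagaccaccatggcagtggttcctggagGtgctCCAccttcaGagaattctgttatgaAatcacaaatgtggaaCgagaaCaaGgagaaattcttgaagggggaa
Ms4a4b: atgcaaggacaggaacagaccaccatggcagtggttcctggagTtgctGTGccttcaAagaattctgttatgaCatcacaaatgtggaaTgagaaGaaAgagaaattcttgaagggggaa

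A read that falls in a shared stretch can be assigned to either copy, so the levels of Ly6c2 and Ms4a4c carry that uncertainty. Ly6c1, a gene of endothelium as well as of blood cells, was the more abundant copy, at 209 ± 41.7 CPM in WT_PBS (SD, n = 3) against 33.4 ± 6.18 CPM for Ly6c2. Spp1 shares an exon stretch of 309 bases, 18.75% of its exon bases, with a same-strand gene model, Gm42793. The 5 genes Plac8, Trem2, Gpnmb, Cd163 and Cx3cr1 share 0% of their 100-base words with any other gene.

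The first comparison was mould against saline within each genotype. In WT lungs Ccr2, Ms4a4c, Plac8, Trem2, Spp1 and Cd163 rose and Cx3cr1 fell, so that 7 of the 9 genes passed the test, where 51.8% of all 16126 tested genes did (limma, Benjamini-Hochberg adjusted p under 0.05). In KO lungs 7 of 9 passed as well, against 57.9% of all genes: Ccr2, Plac8, Trem2, Gpnmb, Spp1 and Cd163 rose and Cx3cr1 fell. The median log2 fold change of the 9 genes was 1.43 in WT and 1.185 in KO, beside -0.02 over all tested genes in both. The highest rises were those of Cd163 and Spp1, and Ly6c2 passed in neither genotype.

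**Figure D1:**
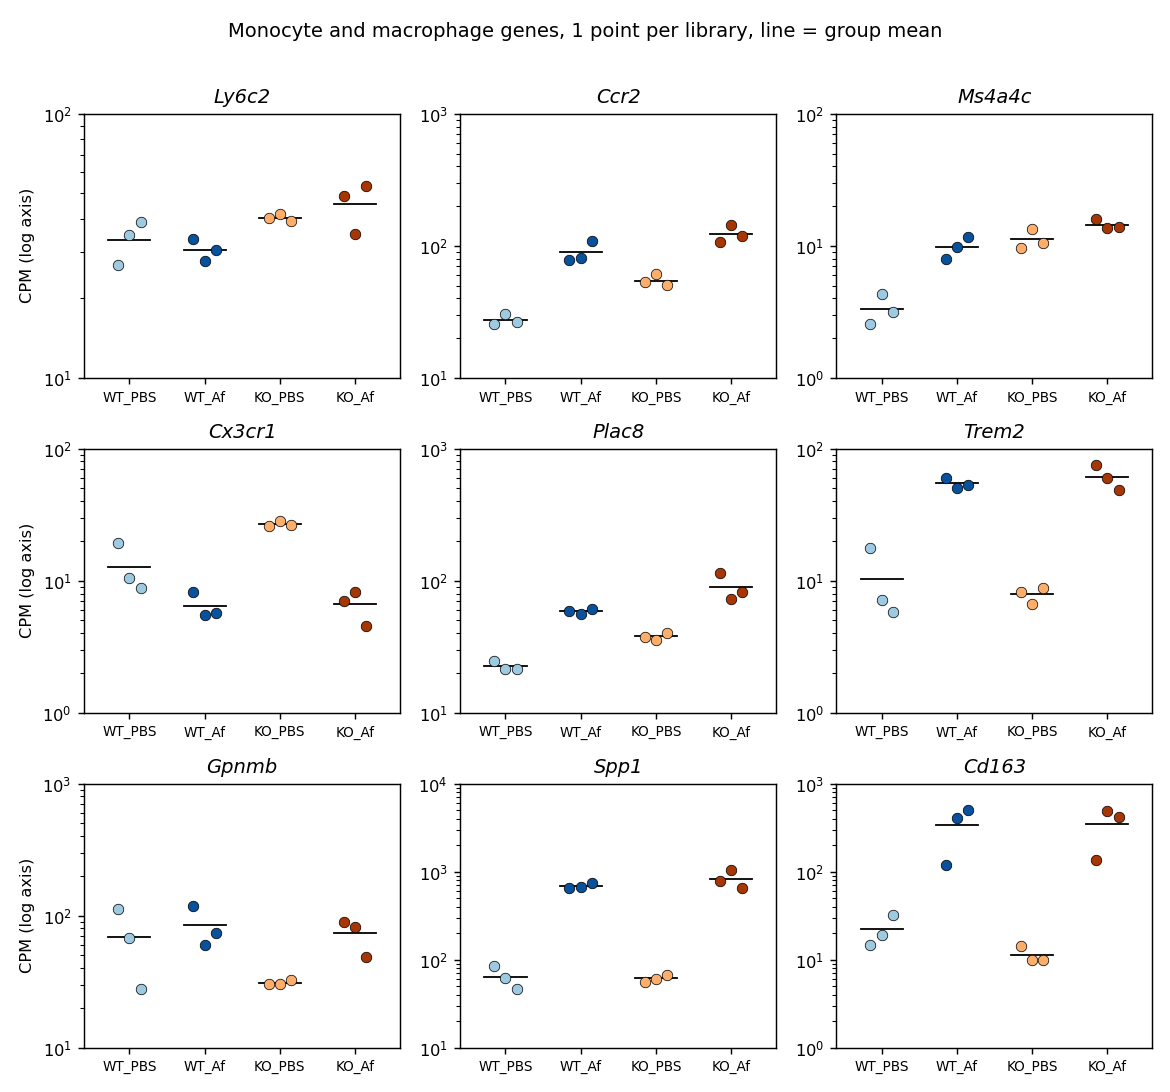
Level of each of the 9 genes in CPM on a log axis, 1 point per library and a line at the mean of the 3 libraries of a group. Spp1 and Trem2 separate mould from saline in both genotypes, Cx3cr1 is highest in KO_PBS, and Cd163 has 1 low point in each mould group.

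Ccr2 (chr9:124101950-124113557, plus strand), the receptor through which Ccl2 and related ligands draw classical monocytes into tissue, was measured at 25.5, 30.7 and 26.5 CPM in the WT_PBS libraries and at 78.3, 81.5 and 109 CPM in the WT_Af libraries, values being given throughout in the order of the library numbers. In KO it was at 52.8, 60.8 and 50.3 CPM with saline and 107, 145 and 119 CPM with mould. Every mould library lay above every saline library of its genotype. How many of all genes separate groups in this way was not counted, for this or the other comparisons. The rise was 1.67 ± 0.14 on the log2 scale (SE) in WT (limma adjusted p = 4.67e-06) and 1.16 ± 0.14 in KO (limma adjusted p = 4.35e-05).

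Cx3cr1 (chr9:119901616-120069879, minus strand), the receptor of the membrane-bound chemokine fractalkine, moved the other way. Its level was 19.2, 10.4 and 8.79 CPM in WT_PBS and 8.20, 5.54 and 5.69 CPM in WT_Af. The KO_PBS libraries were at 25.9, 28.5 and 26.5 CPM and the KO_Af libraries at 7.08, 8.23 and 4.51 CPM. No mould library reached the lowest saline library of its genotype, although WT_Af 18 and WT_PBS 17 were close. Cx3cr1 fell by 0.87 ± 0.27 (log2, SE) in WT (limma adjusted p = 0.0188) and by 1.99 ± 0.27 in KO (limma adjusted p = 8.84e-05). The WT call was lost without WT_PBS 15 (log2 -0.55, limma adjusted p = 0.0695), WT_Af 19 (log2 -0.78, adjusted p = 0.0644) or WT_Af 20 (log2 -0.80, adjusted p = 0.0596). Without WT_PBS 17 the log2 change was -1.09 (limma adjusted p = 0.0095).

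Ly6c2, the gene of the Ly6C antigen, stood at 26.7, 34.6 and 38.9 CPM in WT_PBS, at 33.5, 27.6 and 30.4 CPM in WT_Af, at 40.3, 41.6 and 39.4 CPM in KO_PBS and at 48.7, 35.1 and 53.3 CPM in KO_Af. Mould and saline libraries overlapped in both genotypes. Its log2 difference was -0.12 ± 0.16 in WT (SE; limma adjusted p = 0.567) and 0.15 ± 0.16 in KO (limma adjusted p = 0.433).

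Ms4a4c, a membrane-spanning protein gene read in monocytes, was at 2.57, 4.30 and 3.16 CPM in WT_PBS and at 8.01, 9.83 and 11.6 CPM in WT_Af. With saline the KO libraries already had 9.70, 13.5 and 10.5 CPM, and with mould they had 16.0, 13.6 and 13.9 CPM. The WT groups were far apart, while in KO the lowest mould library lay only just above the highest saline library. Ms4a4c rose by 1.43 ± 0.19 (log2, SE) in WT (limma adjusted p = 8.21e-05), and its KO difference of 0.36 ± 0.19 did not pass (limma adjusted p = 0.114).

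Plac8 (chr5:100553725-100572245, minus strand), a small cysteine-rich protein abundant in monocytes and other leukocytes, was at 24.5, 21.6 and 21.5 CPM in WT_PBS and 58.8, 56.1 and 60.9 CPM in WT_Af. KO libraries had 37.6, 35.6 and 40.4 CPM with saline and 114, 73.3 and 82.7 CPM with mould. All 4 groups were free of overlap with each other, in the order WT_PBS, KO_PBS, WT_Af, KO_Af. Plac8 rose by 1.36 ± 0.14 (log2, SE) in WT and by 1.22 ± 0.14 in KO (limma adjusted p = 1.32e-05 and 2.06e-05).

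Among the macrophage genes, Trem2 (chr17:48346401-48354147, plus strand), a lipid-sensing receptor that signals through the adaptor Tyrobp, was at 17.8, 7.16 and 5.81 CPM in WT_PBS and at 60.4, 50.03 and 53.5 CPM in WT_Af. In KO it was at 8.21, 6.61 and 8.79 CPM with saline and 75.5, 59.9 and 48.8 CPM with mould. WT_PBS 15 was the highest saline library, and the mould libraries were all far above it. Trem2 rose by 2.52 ± 0.31 (log2, SE) in WT and by 2.87 ± 0.31 in KO (limma adjusted p = 6.34e-05 and 1.77e-05).

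Spp1 (chr5:104435118-104441050, plus strand) encodes osteopontin, a secreted matrix protein that binds Cd44 and integrins. Its levels were 84.5, 62.3 and 46.0 CPM in WT_PBS, 655, 670 and 739 CPM in WT_Af, 56.2, 60.8 and 66.1 CPM in KO_PBS and 785, 1052 and 655 CPM in KO_Af. Saline and mould libraries were separated by a wide gap. Spp1 rose by 3.45 ± 0.20 (log2, SE) in WT (limma adjusted p = 5.77e-07) and by 3.73 ± 0.20 in KO (limma adjusted p = 1.63e-07).

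Gpnmb (chr6:49036546-49070929, plus strand), a transmembrane glycoprotein of lysosome-rich macrophages, differed most among the WT_PBS libraries, at 112, 67.7 and 27.7 CPM. It was at 119, 59.4 and 73.9 CPM in WT_Af, at 30.2, 30.4 and 32.6 CPM in KO_PBS and at 89.8, 82.1 and 48.8 CPM in KO_Af. The WT groups overlapped, and the KO groups did not. In WT the log2 difference was 0.43 ± 0.42 (SE; limma adjusted p = 0.403), and in KO Gpnmb rose by 1.185 ± 0.42 (limma adjusted p = 0.0297). The KO call was lost in 5 of the 6 fits that left out 1 library of these groups, with limma adjusted p up to 0.0901 and log2 changes of 1.02 to 1.22, and held without KO_Af 14.

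Cd163 (chr6:124304656-124330527, plus strand) was at 14.5, 19.0 and 32.5 CPM in WT_PBS and at 117, 408 and 498 CPM in WT_Af. In KO it was at 14.3, 9.85 and 9.93 CPM with saline and at 137, 485 and 420 CPM with mould. Each mould group held 1 library far below the other two, WT_Af 18 and KO_Af 12, and both still lay above every saline library. Cd163 rose by 3.76 ± 0.56 (log2, SE) in WT (limma adjusted p = 2.11e-04) and by 4.70 ± 0.56 in KO (limma adjusted p = 3.14e-05). Without WT_Af 18 the WT rise was 4.41, and without KO_Af 12 the KO rise was 5.27. Mrc1, the mannose receptor of tissue macrophages, was low in the same libraries, at 306 CPM in WT_Af 18 and 260 CPM in KO_Af 12 against 561 to 786 CPM in the other 4 mould libraries, while Spp1 and Trem2 were not low there. Whether the composition of these libraries bears on the Cd163 values was not tested.

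**Figure D2:**
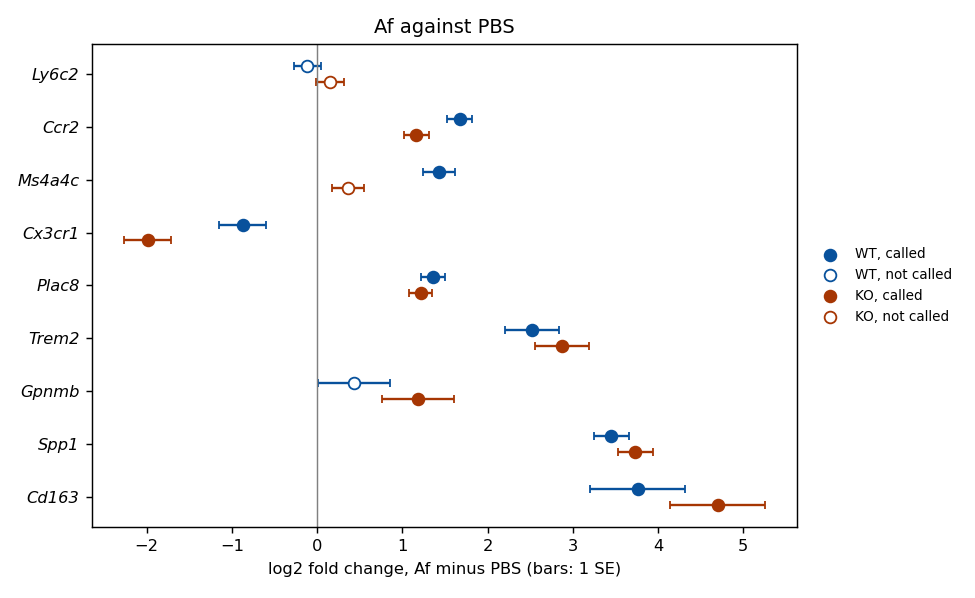
Log2 fold change of mould against saline for each gene, with bars of 1 SE from limma, in WT (blue) and KO (brown), filled where the adjusted p is under 0.05. Cd163 and Spp1 lie farthest to the right in both genotypes, Cx3cr1 lies to the left of 0, and Gpnmb and Ms4a4c are each filled in 1 genotype only.

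The genes that act with these 9 were read from lists, which were also chosen with earlier results of these data known. Counts within the lists are likewise a description. Under mould they stand beside the 51.8% of all tested genes called in WT and 57.9% in KO. Of 10 ligands that recruit or sustain monocytes, 8 rose and 1 fell in each genotype, with a median log2 change of 1.87 in WT and 2.18 in KO. Ccl8 and Ccl7, which both bind Ccr2 or related receptors, rose by 6.37 ± 0.30 and 5.35 ± 0.38 (log2, SE) in WT and by 7.20 ± 0.30 and 5.70 ± 0.38 in KO. Ccl8 went from 2.90, 5.03 and 7.27 CPM in WT_PBS to 458, 444 and 403 CPM in WT_Af. Cx3cl1, the gene of the Cx3cr1 ligand fractalkine, was the 1 that fell, by 2.15 ± 0.24 in KO and from 36.7, 70.4 and 70.003 to 31.8, 31.6 and 36.5 CPM in WT. Its WT call was lost without WT_PBS 16, WT_PBS 17, WT_Af 18 or WT_Af 19, and without WT_PBS 17 and KO_Af 12 the WT count was 7 higher and 0 lower. Of 10 further receptors for chemoattractants and growth factors, 7 rose and 2 fell in WT and 8 rose and 2 fell in KO. Ccr1 and C3ar1 rose by 2.31 and 2.82 (log2) in WT and by 2.57 and 3.19 in KO.

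Of 13 other classical monocyte genes, 9 rose and 0 fell in WT and 8 rose and 0 fell in KO. Cd14, a co-receptor for lipopolysaccharide, rose by 1.32 ± 0.13 in WT and 1.71 ± 0.13 in KO (log2, SE), and S100a4 by 1.78 and 1.56. Counted at an unadjusted p under 0.05, 0 of these 13 were lower in WT and 1 in KO, with 0 in edgeR for both and 0 and 1 in DESeq2. Of 11 other non-classical monocyte genes, 3 rose and 4 fell in WT, and 1 rose and 8 fell in KO, where the list median was -0.80. With 1 library left out, 1 (without WT_PBS 16), 2 (without WT_PBS 17 or WT_Af 18) to 5 fell in WT and 6 to 7 in KO. Treml4, a receptor of non-classical monocytes, fell by 2.28 ± 0.18 in KO and by 0.63 ± 0.18 in WT, and Cd300e fell by 2.69 ± 0.24 in KO. Treml4 went from 16.9, 14.0 and 14.9 CPM in KO_PBS to 2.52, 3.81 and 2.08 CPM in KO_Af. The difference between these KO and WT changes was tested as an interaction. Ace and Klf2 of this list are also endothelial genes, and 3 of 5 endothelial markers fell in WT (1 of 5 without WT_PBS 16, WT_PBS 17, WT_Af 18 or WT_Af 19) and 4 of 5 in KO, so for them monocytes and endothelium cannot be told apart.

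Of 20 genes of Trem2 signalling and lipid-laden macrophages, 13 rose and 1 fell in WT and 12 rose and 1 fell in KO. Lgals3, the gene of galectin-3, rose by 2.33 ± 0.13 in WT and 2.34 ± 0.13 in KO (log2, SE), and the lysosomal proteases Ctsb and Ctsl rose by 1.62 and 1.73 in WT and by 1.86 and 1.98 in KO. Tyrobp, the adaptor of Trem2, was at 67.3, 53.5 and 48.9 CPM in WT_PBS and at 132, 121 and 126 CPM in WT_Af. Of 8 receptors for the products of Spp1 and Gpnmb, 2 rose and 2 fell in each genotype. Cd44, a receptor for osteopontin, rose by 0.87 ± 0.13 in WT and 0.75 ± 0.13 in KO. Of 8 genes for haemoglobin and haem removal, 3 rose and 0 fell in WT and 3 rose and 1 fell in KO (limma), while edgeR and DESeq2 each called 1 lower in WT, as did the unadjusted p. The limma counts of this list and of the Spp1 and Gpnmb receptors did not exceed the share of all genes called. Hmox1, which breaks down haem, rose by 1.89 ± 0.24 in WT and 2.44 ± 0.24 in KO.

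Counts of called markers of other lung cells are read against the 51.8% of all genes called in WT and 57.9% in KO. Of 13 interstitial macrophage genes, 8 rose and 1 fell in each genotype, with C1qb up by 1.64 ± 0.17 in WT and 2.54 ± 0.17 in KO (log2, SE). Among 10 alveolar macrophage genes, 1 rose and 4 fell in each genotype, about the share of all genes called, and Marco, a scavenger receptor, fell, with log2 changes of -1.87 ± 0.16 in WT and -2.001 ± 0.16 in KO (SE). The summed level of the alveolar list was 427 to 567 CPM in WT_PBS and 432 to 459 CPM in WT_Af. Neutrophil markers rose for 7 of 11 genes in WT (4 of 11 without WT_PBS 15, WT_PBS 17, WT_Af 19 or WT_Af 20) and 6 of 11 in KO, and eosinophil markers for 3 of 4 in each. Epx of the eosinophil list had 0 reads in 1 library and at most 441 reads in any. The size of its change depends on the 0.5 CPM added before the log. T cell markers rose for 6 of 7 genes in WT, for 3 of 7 without WT_Af 18, for 1 of 7 without WT_PBS 15, for 4 of 7 without WT_PBS 17 and KO_Af 12, and for 0 of 7 in KO, where limma at an unadjusted p under 0.05, edgeR and DESeq2 also gave 0. The WT_Af sums of the T cell list were 433, 115 and 93.0 CPM in libraries 18, 19 and 20. The part of these cells in the levels of the 9 genes was not tested.

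**Figure D3:**
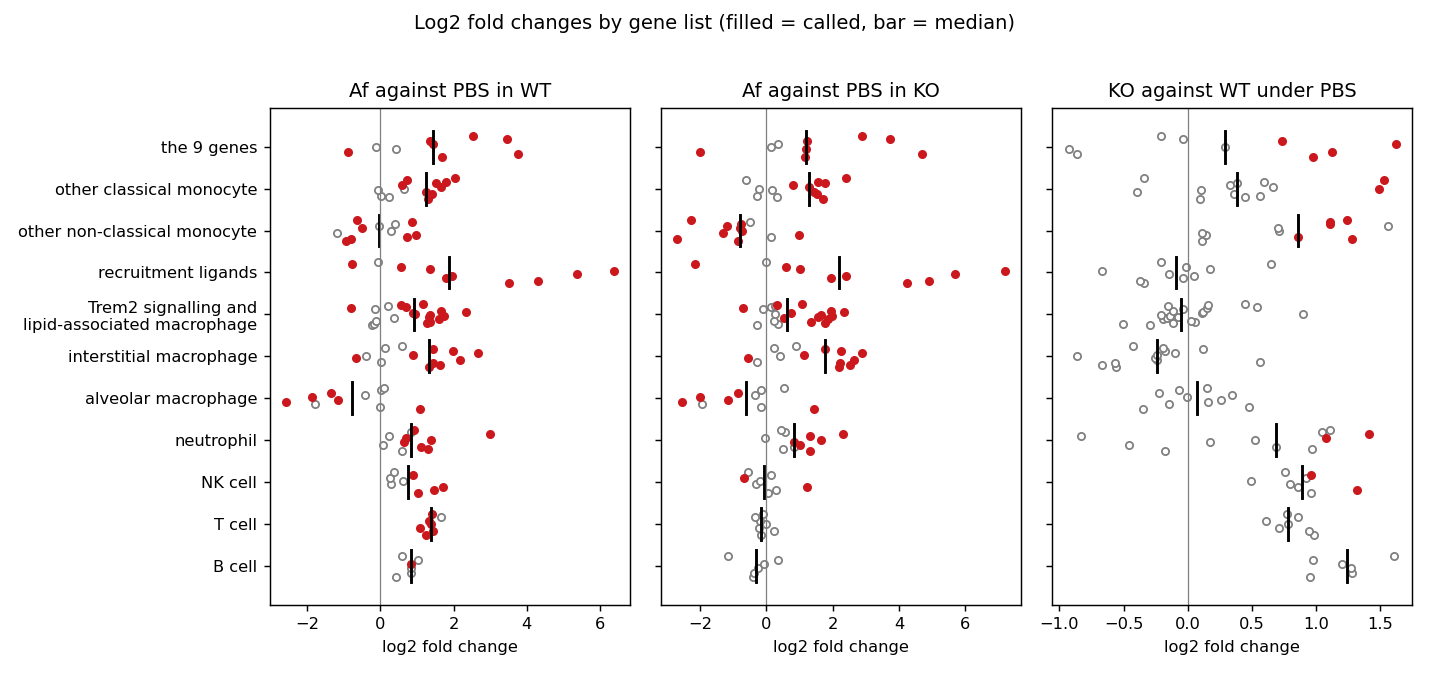
Log2 fold changes of the genes of 11 lists in 3 comparisons, 1 point per tested gene, filled red where the limma adjusted p is under 0.05, with a bar at the list median. Recruitment ligands reach the highest values under mould, non-classical monocyte genes lie mostly left of 0 in KO under mould and right of 0 in KO against WT under PBS, and T, B and NK cell points lie right of 0 in the third panel.

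The second comparison was KO against WT in saline-treated lungs. Here 4 of the 9 genes were higher in KO and 0 lower, where 3.55% of all tested genes passed in either direction (limma). The 4 were Ms4a4c, Ccr2, Plac8 and Cx3cr1, and none of Ly6c2, Trem2, Gpnmb, Spp1 and Cd163 passed. Ms4a4c, at 9.70 to 13.5 CPM in KO_PBS against 2.57 to 4.30 CPM in WT_PBS, was 1.62 ± 0.19 higher (log2, SE; limma adjusted p = 0.00162). Its near copy Ms4a4b was also called higher in KO_PBS, with values given in the closing section. The part of shared reads in the Ms4a4c difference was not tested. Ccr2 was 0.97 ± 0.14 higher (limma adjusted p = 0.00556), Plac8 0.73 ± 0.14 higher (limma adjusted p = 0.0153) and Cx3cr1 1.12 ± 0.27 higher (limma adjusted p = 0.0456). For each of the 4, every KO_PBS library lay above every WT_PBS library. The share of all genes that separate in this way was not counted, so this only describes the 4.

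Ccr2 and Ms4a4c held in each of the 6 fits that left out 1 of these libraries, with limma adjusted p up to 0.0347 and 0.0118. Plac8 lost its call without WT_PBS 17 (limma adjusted p = 0.0592) and without KO_PBS 9, 10 or 11 (0.0557 to 0.069), at log2 differences of 0.69 to 0.78. Cx3cr1 held only without WT_PBS 15 (log2 1.45), and was lost without any of the other 5 libraries, at log2 differences of 0.91 to 1.15, in edgeR (log2 1.08, adjusted p = 0.0592) and without a filter on low levels (limma adjusted p = 0.0874).

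Ly6c2 was also higher in every KO_PBS library than in every WT_PBS library, by a narrow margin of 39.4 against 38.9 CPM, and its log2 difference of 0.29 ± 0.16 did not pass (SE; limma adjusted p = 0.396). Cd163 was lower in every KO_PBS library, 9.85 to 14.3 CPM against 14.5 to 32.5 CPM, with a log2 difference of -0.87 ± 0.56 (limma adjusted p = 0.48). The log2 difference was -0.93 ± 0.42 for Gpnmb (limma adjusted p = 0.281), -0.21 ± 0.31 for Trem2 (adjusted p = 0.805) and -0.03 ± 0.20 for Spp1 (adjusted p = 0.961). The Gpnmb groups overlapped only through WT_PBS 17, and without that library the difference was -1.47 with a limma adjusted p of 0.05 (below the threshold before rounding).

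Of 11 other non-classical monocyte genes, 5 were higher in KO_PBS, 0 were lower and 6 did not pass, where 3.55% of all tested genes passed. The list median was 0.86, beside 0.01 over all genes. Treml4 was 1.24 ± 0.18 higher (log2, SE), Cd300ld 0.86 ± 0.13 and Cd300e 1.28 ± 0.24 (limma adjusted p = 0.00469, 0.00686 and 0.0169). The other 2, Spn and Pou2f2, are named after their values were seen. Without KO_PBS 9, 10 or 11 the count was 2 each time, and without WT_PBS 17 it was 7. Of 13 classical monocyte genes 2 were higher, among them Ifitm6 by 1.49 ± 0.34 (log2, SE), and 0 to 1 were higher when any 1 of the 6 libraries was left out. None of 10 recruitment ligands passed in limma, edgeR or DESeq2, with 1 higher and 1 lower at an unadjusted p under 0.05. Of 10 recruitment receptors 0 passed by any of these, unadjusted p included.

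Counts for markers of other leukocytes are read against the 3.55% of all tested genes that passed. For comparison, the median log2 difference was 0.29 for the 9 genes and 0.38 for the classical monocyte list. NK cell markers had a median log2 difference of 0.89, with 2 of 8 higher (Gzma by 1.32 ± 0.22 and Nkg7 by 0.96 ± 0.18, SE), and Klra8 was at 0 in 11 libraries. The summed level of the NK list was 59.5 to 72.1 CPM in KO_PBS and 21.5 to 39.6 CPM in WT_PBS. B cell markers had a median of 1.24 and T cell markers one of 0.78, and 0 of 6 and 0 of 7 passed in limma or edgeR. In DESeq2 the count was 3 and 0, where 1216 of all 16126 tested genes passed. At an unadjusted limma p under 0.05 it was 5 and 1, where 2797 of all genes passed. The sums of these lists were 232 to 256 CPM (B) and 94.6 to 118 CPM (T) in KO_PBS against 43.9 to 157 CPM and 39.3 to 83.5 CPM in WT_PBS. Of 11 neutrophil markers 2 were higher, of 13 interstitial macrophage genes 0 passed and the median was -0.24, and of 5 endothelial markers 1 was higher. With 1 of the 6 libraries left out, the counts ran from 0 to 3 for NK cells, 0 to 2 for neutrophils and 0 to 3 for B cells, and were 0 for endothelium. At an unadjusted p under 0.05, 4 interstitial genes were lower and 1 higher, and DESeq2 called the same number lower. Among 8 glucocorticoid-induced genes 3 were lower, with log2 differences of -3.13 ± 0.42 for Fkbp5, -3.72 ± 0.63 for Zbtb16 and -1.36 ± 0.15 for Cdkn1a (SE). The part of the cells with these markers in the difference of the 4 genes, or of the classical and non-classical monocyte lists, was not tested.

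**Figure D4:**
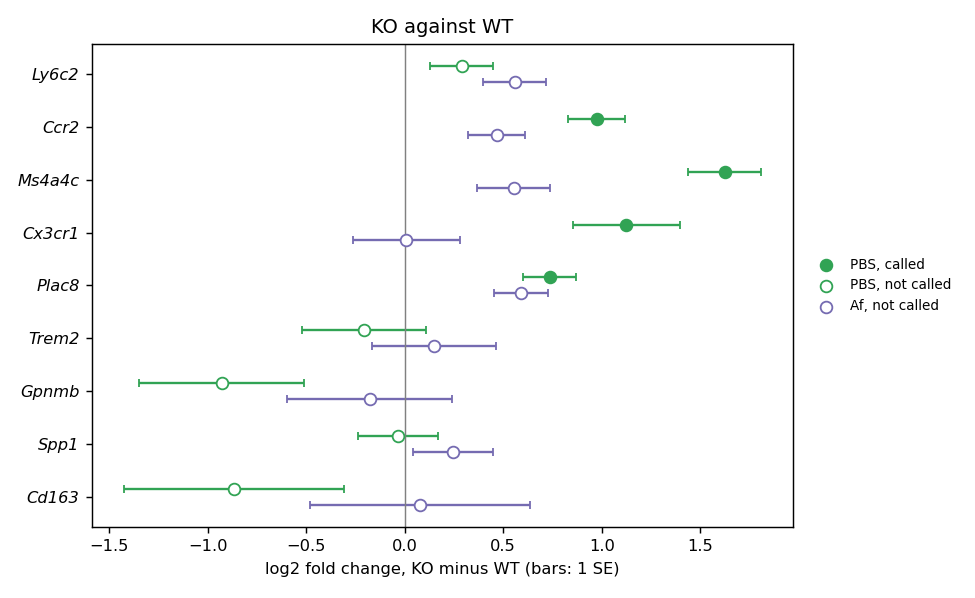
Log2 difference of KO against WT for each gene with bars of 1 SE from limma, under saline (green) and mould (purple), filled where the adjusted p is under 0.05. Ccr2, Ms4a4c, Cx3cr1 and Plac8 are filled under saline, and no point is filled under mould.

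In the third comparison, KO against WT under mould, 0 of the 9 genes passed in limma or edgeR and 1 passed in DESeq2. Over all 16126 tested genes, 0.0868% passed in limma and 187 genes in DESeq2, and 1807 had an unadjusted limma p under 0.05. At that unadjusted level 4 of the 9 were higher in KO. Plac8 was 0.59 ± 0.14 higher (log2, SE; limma adjusted p = 0.196), and this was the gene that DESeq2 called (log2 0.63, adjusted p = 0.0117). The other 3 were Ly6c2 at 0.56 ± 0.16 (limma adjusted p = 0.283), Ms4a4c at 0.55 ± 0.19 (adjusted p = 0.365) and Ccr2 at 0.47 ± 0.14 (adjusted p = 0.332). Ly6c2, Ms4a4c and Plac8 were higher in all 3 KO_Af libraries than in all 3 WT_Af libraries, and Ccr2 overlapped through WT_Af 20 and KO_Af 12. Here too the share of all genes that separate was not counted. Differences were 0.01 ± 0.27 for Cx3cr1, 0.15 ± 0.31 for Trem2, -0.18 ± 0.42 for Gpnmb, 0.25 ± 0.20 for Spp1 and 0.08 ± 0.56 for Cd163. Without KO_Af 13, Plac8 and Ly6c2 passed (limma adjusted p = 0.0391 and 0.0499). Ly6c1, the near copy of Ly6c2, was 0.84 ± 0.17 higher in KO_Af (limma adjusted p = 0.13), at 295, 229 and 356 CPM against 152, 153 and 181 CPM.

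Averaged over saline and mould, 3 of the 9 genes were higher in KO and 0 lower, where 2.16% of all genes passed (limma). Ms4a4c was 1.09 ± 0.13 higher (log2, SE), Ccr2 0.72 ± 0.10 and Plac8 0.66 ± 0.10 (limma adjusted p = 0.00195, 0.00542 and 0.00617), and each held in all 12 fits that left out 1 library. Ly6c2, at 0.42 ± 0.11 (limma adjusted p = 0.0791), did not pass, but did in DESeq2 (0.43, adjusted p = 0.0161), in limma with array weights (0.51, adjusted p = 0.00168) and in limma without KO_Af 13 (0.51, adjusted p = 0.0201).

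The interaction asks whether mould changed a gene by a different amount in KO than in WT. Over all 16126 tested genes, 0.0062% passed in limma, 362 genes passed in DESeq2, and 1750 had an unadjusted limma p under 0.05. None of the 9 passed in limma or edgeR, 1 passed in DESeq2, and 3 had an unadjusted limma p under 0.05. Those 3 were Ms4a4c at -1.07 ± 0.26 (log2, SE; limma adjusted p = 0.147), Cx3cr1 at -1.12 ± 0.38 (adjusted p = 0.302) and Ccr2 at -0.51 ± 0.20 (adjusted p = 0.381). DESeq2 called Ms4a4c (-1.181, adjusted p = 0.0105). So the larger fall of Cx3cr1 in KO and the rises of Ms4a4c in WT alone and of Gpnmb in KO alone were not shown to differ between genotypes in the limma fit with equal weights. With array weights, which let libraries that fit less well count for less, limma called the interaction of Cx3cr1 (-1.51, adjusted p = 0.00681), Ms4a4c (-0.97, adjusted p = 0.0201) and Ly6c2 (0.58, adjusted p = 0.0425). That fit called 1602 of all 16126 tested genes, with weights from 0.120 for KO_Af 12 to 3.29 for KO_Af 14. For Gpnmb the interaction was 0.75 ± 0.59 and for Cd163 0.94 ± 0.79. Among the 11 non-classical genes 0 passed in limma or edgeR, 5 were negative in DESeq2 and 6 at an unadjusted limma p under 0.05.

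Ratios of reads within a library need no scaling between libraries. There were 1.33, 2.95 and 3.01 Ccr2 reads per Cx3cr1 read in WT_PBS and 9.54, 14.7 and 19.2 in WT_Af. In KO the ratio was 2.04, 2.13 and 1.89 with saline and 15.1, 17.6 and 26.4 with mould. Saline and mould libraries did not overlap, and KO_PBS lay within the range of WT_PBS, where both genes were higher in KO. Cd163 reads per Ccr2 read were 0.569, 0.621 and 1.23 in WT_PBS and 0.271, 0.162 and 0.198 in KO_PBS, with every KO library below every WT library. Ccr2, by which this ratio divides, was itself called higher in KO_PBS, and Cd163 alone did not pass (limma adjusted p = 0.48). Under mould the ratio was 1.498, 5.01 and 4.57 in WT and 1.28, 3.35 and 3.53 in KO, and these overlapped.

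**Figure D5:**
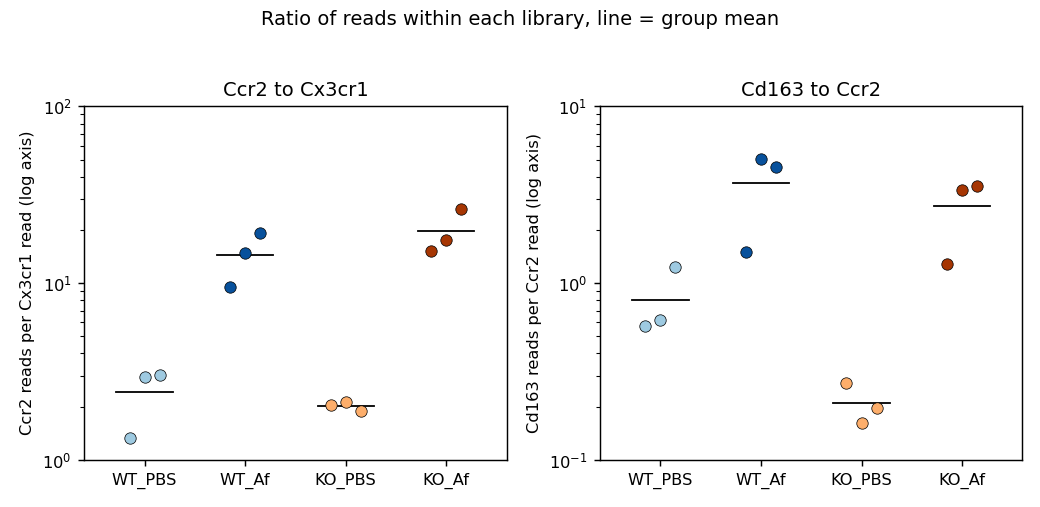
Reads of Ccr2 per read of Cx3cr1 (left) and of Cd163 per read of Ccr2 (right) on log axes, 1 point per library with a line at the group mean. The left ratio is 1.33 to 3.01 in saline and 9.54 to 26.4 in mould libraries of both genotypes, and the right ratio is lowest in KO_PBS.

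Per kilobase of exon, Spp1 was the most abundant of the 9 genes in all 4 groups, at 39.0 ± 11.7 CPM per kb in WT_PBS and 418 ± 27.1 CPM per kb in WT_Af (SD, n = 3). Exon length was merged over all annotated transcripts of a gene and can exceed that of the RNA present. Ranks between genes are therefore approximate. Plac8 came next with saline, at 23.8 ± 1.53 CPM per kb in KO and 14.2 ± 1.08 in WT, where Ly6c2 at 12.2 ± 2.26 and Gpnmb at 10.6 ± 6.45 lay within the spread. Under mould Cd163 and Plac8 followed Spp1, at 62.5 ± 36.5 and 36.8 ± 1.53 CPM per kb in WT and 63.6 ± 33.9 and 56.6 ± 13.5 in KO, and the spread of Cd163 covered the gap between them. Cx3cr1 was the lowest gene under mould, at 1.44 ± 0.332 CPM per kb in WT and 1.47 ± 0.422 in KO. In WT_PBS the levels of Ms4a4c, Trem2 and Cx3cr1, at 1.91 ± 0.502, 2.07 ± 1.33 and 2.84 ± 1.24 CPM per kb, did not differ beyond their spread. In KO_PBS the lowest were Trem2 and Cd163, at 1.59 ± 0.228 and 2.08 ± 0.468 CPM per kb, which did not differ beyond their spread. Gpnmb followed at 4.77 ± 0.204. Cx3cr1 and Ms4a4c, at 5.99 ± 0.29998 and 6.42 ± 1.12 CPM per kb, again did not differ beyond their spread.

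The likeness of 2 genes was measured as the root mean square distance of their log2 levels over the 12 libraries, each centred on its own mean, and is a description of these libraries. Among the 9 genes the closest pair was Ccr2 and Plac8 at 0.2933, then Ccr2 and Ms4a4c at 0.3881, Ms4a4c and Plac8 at 0.4433, and Trem2 and Spp1 at 0.5235. The farthest pair was Cx3cr1 and Cd163 at 3.047. Among all tested genes the nearest to Ccr2 were Tlr1 at 0.178, Gzmb at 0.191 and Slfn2 at 0.208, and Slfn2 was also the nearest to Plac8 at 0.159. Gzma stood at 0.279 from Ms4a4c, and Gzma and Gzmb are protease genes of NK and T cells. The nearest to Ly6c2 were Tuba8 at 0.139 and its own near copy Ly6c1 at 0.148, yet 1663 genes lay within 0.3 of Ly6c2, which varied little. Aplnr, a receptor gene of endothelium, and Tnfrsf19 were near Cx3cr1 at 0.326 and 0.318, behind Cecr6 at 0.299. Ms4a7, a macrophage gene, was near Trem2 at 0.274, and Il13ra2, a decoy receptor for interleukin 13, was the nearest to Spp1 at 0.225. No gene lay within 0.3 of Gpnmb or Cd163, and the nearest to Cd163 were Msx3 at 0.519 and Ccl2 at 0.525. In saline libraries Il13ra2 and Msx3 were at most at 0.124 and 0.130 CPM. Both passed the filter on low levels only through mould libraries, so their distances depend on the 0.5 CPM added before the log.

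The promoters of the 9 genes, 12 windows of 300 bases from RefSeq on GRCm38.p6, were searched on both strands for 5 motifs of factors known in myeloid cells. The windows shown are those of Spp1 and Trem2, which rose together, and of Ly6c2, which did not pass. In the Spp1 window (chr5:104434969-104435038, plus strand) capitals mark the PU.1 motif AGGAAGT, which 9.351% of 32851 promoters hold, and in the Trem2 window (chr17:48346331-48346400, plus strand) they mark the AP-1 motif TGANTCA, held by 7.808%. The Ly6c2 window (chr15:75112039-75112108, minus strand) also has AGGAAGT.
Spp1: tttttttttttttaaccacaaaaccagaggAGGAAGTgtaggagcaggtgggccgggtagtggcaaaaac
Trem2: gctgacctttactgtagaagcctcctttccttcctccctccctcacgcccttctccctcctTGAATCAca
Ly6c2: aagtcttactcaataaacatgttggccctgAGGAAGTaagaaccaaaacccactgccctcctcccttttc

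AGGAAGT was thus found at a gene that rose and at one that did not pass, and a match says only that these letters are there. The other 3 motifs were GAAANNGAA (interferon response, 8.56% of promoters), found at Spp1 and Ccr2, TTGCNNAA (C/EBP, 10.8%), found at Plac8, Spp1 and Trem2, and CACGTG (MITF and TFE factors, 7.15%), found at none of the 9. AP-1 letters were also found at Gpnmb, and no motif of the 5 was found in the windows of Ms4a4c, Cx3cr1 and Cd163.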

How the data were processed

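Per the labels' protocols, mouse lung RNA was extracted with a Qiagen RNEasy kit and made into libraries with an Illumina TruSeq mRNA kit. The submitters' processing notes name cutadapt 1.18, STAR 2.7.6a and RSEM 1.3.0 and the builds GRCm38 and GRCh38, with no role for each. The authors deposited 1 table of a linear signal per gene and library, CPM scaled by TMM (trimmed mean of M-values), for 49585 genes. Dividing by the level that 1 read stands for gave whole numbers for 100% of values (tolerance 0.01), which were taken as the reads. The sources do not say whether counting used strand, so genes that overlap another gene or lie antisense to it are uncertain. Depth was 20708884 to 30229446 reads per library, and 3 reads, the level a count of 0 allows, came to 0.0983 to 0.144 CPM. Of the identifiers 49326 (99.5%) matched GENCODE M21 without the version, which gave coordinates, exon lengths and transcripts.

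A gene was tested if 3 or more of the 12 libraries reached 1 CPM; 16126 genes did, all 9 described genes among them. The test was on log2(CPM + 0.5) with limma 3.58.1 in R 4.3.3 (mean-variance trend, 1 fit over 4 groups), with Benjamini-Hochberg adjusted p under 0.05 as the threshold. That scale understates changes of low genes. The scripts were tested on simulated data. The 9 genes and the gene lists were chosen with earlier results of these data known. Some genes stand in more than 1 list. From each list the text names up to 3 genes with the smallest p in the comparison at hand, and for each of the 9 genes up to 3 nearest genes, leaving out Gm and Rik names and antigen receptor segments. Mrc1, Tyrobp, Cx3cl1, Ace, Klf2, Krt13, Chil4, Spn, Pou2f2 and genes of the closing section were named after their values were seen. Alternatives were other pseudocounts, filters, rescalings, array weights, the compared groups alone, count tests on the recovered reads (the quasi-likelihood test of edgeR 4.0.16, and DESeq2 1.42.0, whose empty adjusted p stayed empty), leaving out each library and, chosen after seeing the data, leaving out WT_PBS 17 and KO_Af 12 together and recounting the lists under mould without each library. Coding sequences were aligned with Biopython 1.88. Figures were drawn with matplotlib 3.10.9. Some genes that these rules name are not reported here.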

Additional observations from a re-analysis of the deposited data

How the results depend on the processing

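Of 1062 values of the 9 genes under the alternatives, 990 kept their direction and their side of the threshold, 33 changed sign, 18 gained a call and 21 lost one. Values that changed sign had not passed to begin with. Under array weights they were Trem2 at 0.0352 (KO against WT, saline), -0.0304 (mould), 0.0024 (averaged) and -0.0655 (interaction) and Cx3cr1 at -0.22 (mould), which rescaling put at -0.00129 (median) and -0.00539 (quantile). Without both WT_PBS 17 and KO_Af 12 they were Ly6c2 at 0.00083 and Gpnmb at -0.11 (mould against saline, WT), Cx3cr1 at -0.0567 and Trem2 at -0.0095 (KO against WT, mould) and Cd163 at 0.048 (averaged). Leaving out each library in turn gave ranges over all such fits. For mould against saline in WT they were -0.27 to 0.00083 (Ly6c2) and -0.11 to 0.89 (Gpnmb). For KO against WT they were -0.51 to 0.26 (Trem2) and -0.25 to 0.18 (Spp1) under saline, -0.16 to 0.24 (Cx3cr1), -0.0095 to 0.30 (Trem2), -0.40 to 0.10 (Gpnmb) and -0.57 to 0.65 (Cd163) under mould, and -0.18 to 0.20 (Trem2) and -0.0027 to 0.22 (Spp1) averaged. The Trem2 interaction ran from -0.11 to 0.66.

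Of the 9 genes, array weights called 3 under mould, 5 averaged and 3 in the interaction, and DESeq2 1 under mould and 1 in the interaction. Leaving out 1 library gave 2 to 4 calls under saline and 0 to 2 under mould. The cause was not tested. Over all genes, the KO against WT count under saline (573) was 373 unfiltered, 2646 with array weights, 1124 with the compared groups alone, 1216 in DESeq2 and 131 to 430 with 1 library left out. Under mould (14) it was 2204 with array weights, 3 alone, 187 in DESeq2, 9 at a filter of 5 CPM and 3 to 110 with 1 library left out. Averaged (349) it was 188, 3224, 1147 and 103 to 814 for no filter, array weights, DESeq2 and 1 library left out, and for the interaction (1) 0, 1602, 362 and 0 to 187, with 0 at 5 CPM, 2 and 6 at pseudocounts of 1 and 2 and 7 after quantile rescaling. Rescaling moved the median of all genes by under 0.1 log2. No paired analysis was possible because each library number occurs once. Ly6c2 and Ms4a4c reads are limited by near copies, and 62 to 99 reads of Ms4a4c per WT_PBS library limit its precision.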

Other observations

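Spp1 lies on chromosome 5 beside other genes of mineralised-tissue matrix proteins, and a pair of them had more reads with mould. Dmp1 was at 0 to 0.0945 CPM in the 6 saline libraries, at 1.296, 2.88 and 3.74 CPM in WT_Af and at 2.32, 6.25 and 5.32 CPM in KO_Af. Dspp was at most at 0.0472 CPM in saline and at 0.384 to 1.61 CPM in mould libraries. Both genes passed the filter on low levels only through mould libraries, so no test is given. Ibsp stayed at or below 0.0879 CPM and Mepe had 0 reads in all 12 libraries, which allows up to 3 reads in each.

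Of 11 tested members of the Ms4a family beside Ms4a4c, 8 rose and 1 fell with mould in WT and 8 rose and 2 fell in KO. Ms4a6d rose by 2.69 ± 0.19 (log2, SE) in WT and 3.27 ± 0.19 in KO, and Ms4a4a by 3.03 ± 0.33 and 3.88 ± 0.33, whereas Ms4a4d fell by 1.48 ± 0.12 in WT (limma adjusted p at most 2.45e-05 for these). Under saline Ms4a6b and Ms4a4b were higher in KO by 0.72 ± 0.12 and 1.37 ± 0.24 (limma adjusted p = 0.00975 and 0.0113). Ms4a4b, the near copy of Ms4a4c, was at 23.0, 30.1 and 26.9 CPM in KO_PBS against 6.17, 13.8 and 11.4 CPM in WT_PBS. Of 15 interferon-stimulated genes 8 rose (5 without WT_PBS 15, WT_PBS 17 or WT_Af 20) and 0 fell in WT (0 in edgeR, 1 in DESeq2 and 1 at an unadjusted p under 0.05 fell) and 9 rose and 1 fell in KO, with Isg15 up by 1.11 ± 0.11 and 1.52 ± 0.11. Of 7 Ly6 family genes 3 rose in each genotype (0 to 2 in WT with 1 library left out), and of 5 Trem family genes 1 rose and 1 fell in each. Over all tested genes, 51.8% passed under mould in WT and 57.9% in KO. The interferon count was near that share in WT, and the Ly6 and Trem family counts lay below it in both genotypes.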
